A study of Mus musculus with 3 samples.

Results

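This set covers genes for extracellular matrix proteins, matrix-cutting proteases and their inhibitors, and stromal cell markers, compared between mouse liver and spleen. The rule reads only gene symbols: the collagen, laminin, Mmp, Timp, Adam, fibulin, Lox and Sparc prefixes, plus Igfbp4, Lum, Dcn, Vim, Acta2 and Synpo2 by full symbol. The rule found 53 of the 7984 genes named on the array, represented by 65 spots, and Dcn was not among them. The rule was written with earlier results of these data known, and this bears most on the genes given by full symbol. Prefixes also took in Loxhd1, which is a gene of the inner ear and no lysyl oxidase.

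Each of 3 two-colour cDNA arrays was hybridised with spleen RNA in Cy3 (green) and liver RNA in Cy5 (red). Both were purchased total RNAs, with no genotype, strain, age or treatment given in the labels, and both went through a double round of amplification to cRNA. The arrays are numbered as replicates of 1 group, without any word on separate animals, RNA lots or amplifications, so each p-value reflects how the arrays vary among themselves, and that variation may be purely technical. Dyes were never exchanged, so dye and tissue cannot be told apart.

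Every value is a deposited log2 ratio of the 2 channels, and an exact 0 was treated as missing. The labels do not name the numerator. A positive ratio is likely liver over spleen, because the hepatocyte gene Fgb averaged 4.14 ± 1.41 (SD, n = 3 arrays) and the B-cell gene Ms4a1 -3.93 ± 0.39. Hprt, a common reference gene, averaged 0.10 ± 0.12. Ratios were present for 13066, 11120 and 15210 of 16273 spots on arrays 1, 2 and 3. Of the tested markers, 3 of 3 hepatocyte genes were higher in liver (means from 3.88 to 5.16) and 5 of 5 B-cell genes higher in spleen (means from -3.93 to -2.73); Fgb and Ms4a1 are in these lists and set the sign.

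The extracellular matrix has sheet-like basement membranes, built on laminins and network collagens, and an interstitial part built on fibrillar collagens. Mmp enzymes cut matrix proteins and Timp proteins inhibit them, while Adam proteins mostly act at the cell surface, where several of them shed membrane proteins. Liver sinusoids have a sparse matrix without a continuous basement membrane. The spleen has a capsule and trabeculae with smooth muscle and a meshwork of reticular fibres.

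A ratio on all 3 arrays was present for 29 of the 53 members (54.7%), against 71.8% of all named genes; 8 members had ratios on 2 arrays and 16 on 1. Members without 3 ratios were outside the main test, so the counts below describe the 29 and not all members. Tests were run with limma over all 5731 genes with 3 ratios, with Benjamini-Hochberg adjustment over all of them, and genes with an adjusted p under 0.05 were called. Of the 29 members, 7 were higher in liver, 12 were higher in spleen and 10 did not pass. Among all tested genes 54.9% were called, 27.1% higher in liver and 27.8% higher in spleen. The members' median log2 ratio was -0.29, and that of all tested genes -0.03. When a 2-fold difference was taken as the null, 8 of 29 members passed, where 12.1% of all genes did: 3 on the liver side (7.31% of all genes) and 5 on the spleen side (4.76%). Of these 8, 5 are the genes given by full symbol (Igfbp4, Lum, Synpo2, Vim and Acta2). Of the 24 tested members found by prefix, 3 passed that null (12.5%) and 14 were called (58.3%, with 5 higher in liver and 9 in spleen), both near the shares of all genes. A call together with a mean of at least 2-fold was found for 12 of 29 members, 3 higher in liver and 9 in spleen, and for 25.3% of all genes. Among single spots 25 of 35 member spots with 3 ratios were called, 10 toward liver and 15 toward spleen, where 59.9% of all such spots were, 29.7% and 30.2% by side. Without array 1 the number higher in liver fell to 4, as Lamb1, Col27a1 and Adamtsl5 lost their calls. When no spread was pooled over genes, 4 members were called higher in liver and 5 in spleen, and Adam5, Mmp23, Col14a1 and Col3a1 were among those lost (adjusted p = 0.087, 0.0665, 0.0639 and 0.158). When genes with ratios on 2 arrays were also fitted, limma called Col25a1 higher in liver (0.58, adjusted p = 0.0484) and Adam30, Loxhd1 and Mmp13 higher in spleen (-0.70, -0.69 and -0.65, adjusted p = 0.0273, 0.0311 and 0.035), while Adam21 lost its call (adjusted p = 0.0537). In these bulk RNAs fewer cells of a type and less RNA per cell cannot be told apart.

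**Figure D1:**
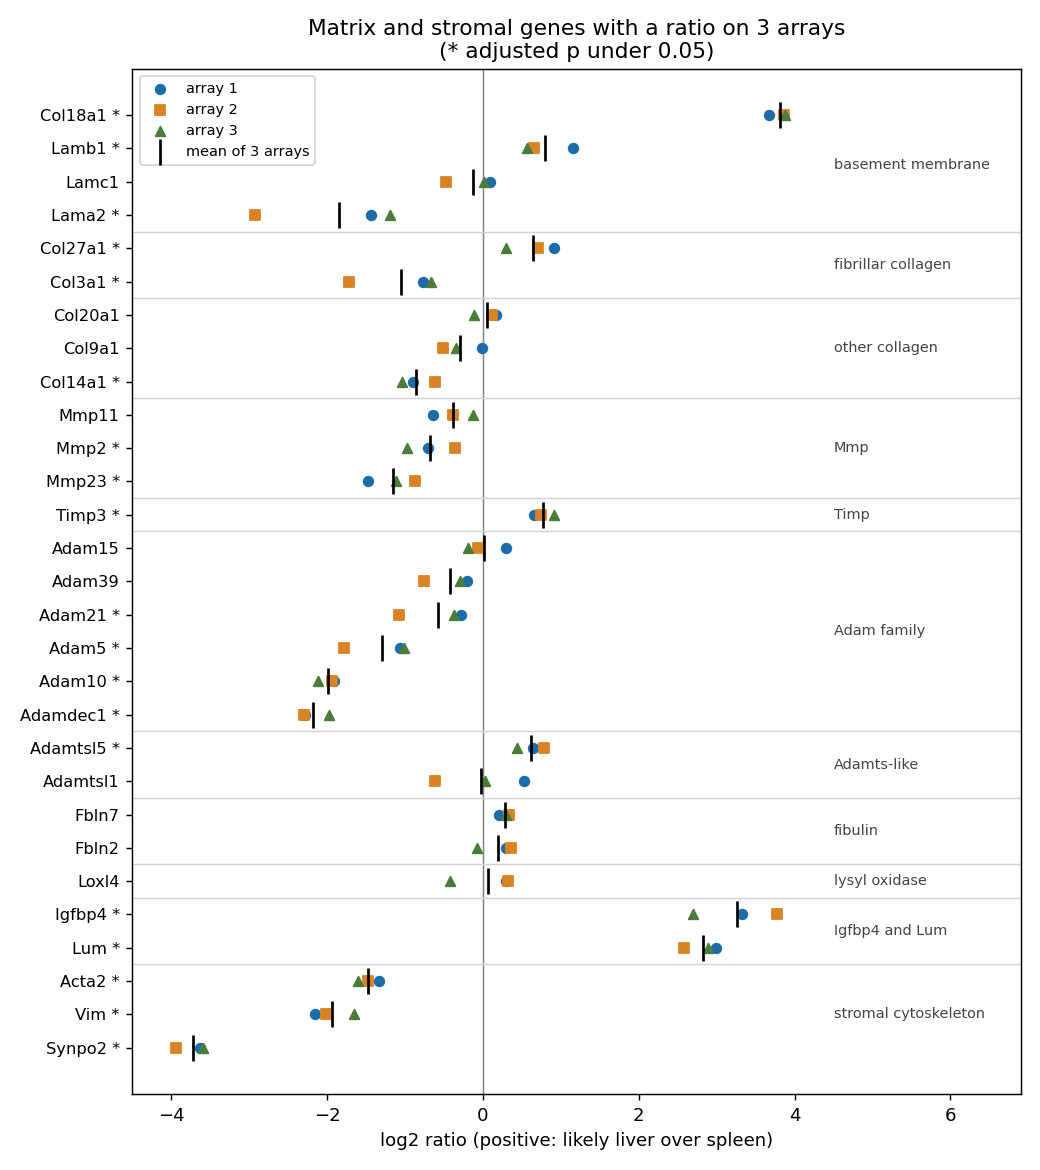
Log2 ratio (horizontal axis, positive likely liver over spleen) of the 29 matrix and stromal genes with a ratio on 3 arrays, grouped by role; circles, squares and triangles are arrays 1, 2 and 3, the black bar is their mean, and an asterisk marks an adjusted p under 0.05. Col18a1, Igfbp4 and Lum lie at 2.58 or above on each array and Synpo2 at -3.59 or below, while the other members lie between -2.92 and 1.16.

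The members with the largest ratios were a stromal gene and a basement membrane gene. Synpo2, an actin-bundling protein of muscle, stood at rank 4 of 5731 genes from the spleen side. Synpo2 entered the set by full symbol, in a rule written with earlier results known, so its rank only describes a gene chosen that way. Col18a1, a basement membrane collagen whose C-terminal fragment is endostatin, stood at rank 52 from the liver side. To show the region upstream of genes with large ratios on either side, promoter windows of 6 called members are printed, from 250 bases before to 50 bases after the RefSeq start (GRCm38.p6, 5′ to 3′ on the gene's strand). The 6 were picked by name and are not the members with the largest ratios. Lum (2.82), Adamdec1 (-2.18) and Adam10 (-1.99) are not shown, while Lama2 (-1.85) and Acta2 (-1.47) are. The RefSeq table held a window for 37 of the 53 members, matched by symbol. Capitals mark matches on either strand to TATAAA (bound by TBP), to CCAAT (bound by NF-Y), to GGGCGG (bound by Sp1) or to the CArG box (bound by serum response factor; CC, then 6 bases that are each A or T, then GG); no matches overlapped. The liver-side windows belong to Col18a1 (chr10:77166481-77166780 and, for its second start, chr10:77113656-77113955, both minus strand) and Igfbp4 (chr11:99040994-99041293, plus strand).
Col18a1, first start: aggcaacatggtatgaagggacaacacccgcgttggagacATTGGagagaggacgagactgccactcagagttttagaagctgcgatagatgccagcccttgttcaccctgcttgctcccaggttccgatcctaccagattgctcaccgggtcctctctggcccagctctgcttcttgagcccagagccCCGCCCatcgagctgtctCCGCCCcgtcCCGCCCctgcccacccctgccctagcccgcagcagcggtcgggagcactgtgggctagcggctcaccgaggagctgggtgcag
Col18a1, second start: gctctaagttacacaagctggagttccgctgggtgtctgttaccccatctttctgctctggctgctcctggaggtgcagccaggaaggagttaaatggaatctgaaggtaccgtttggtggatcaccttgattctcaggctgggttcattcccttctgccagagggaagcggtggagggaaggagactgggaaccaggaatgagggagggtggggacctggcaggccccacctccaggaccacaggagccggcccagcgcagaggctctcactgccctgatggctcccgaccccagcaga
Igfbp4: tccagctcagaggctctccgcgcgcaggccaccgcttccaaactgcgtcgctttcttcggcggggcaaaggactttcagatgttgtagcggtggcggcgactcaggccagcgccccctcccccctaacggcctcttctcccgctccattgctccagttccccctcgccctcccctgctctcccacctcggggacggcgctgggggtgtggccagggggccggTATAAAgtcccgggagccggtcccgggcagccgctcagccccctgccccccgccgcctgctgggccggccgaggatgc

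The spleen-side windows belong to Synpo2 (chr3:123236100-123236399, minus strand), Vim (chr2:13574061-13574360, plus strand), Acta2 (chr19:34255324-34255623, minus strand) and Lama2 (chr10:27616893-27617192, minus strand).
Synpo2: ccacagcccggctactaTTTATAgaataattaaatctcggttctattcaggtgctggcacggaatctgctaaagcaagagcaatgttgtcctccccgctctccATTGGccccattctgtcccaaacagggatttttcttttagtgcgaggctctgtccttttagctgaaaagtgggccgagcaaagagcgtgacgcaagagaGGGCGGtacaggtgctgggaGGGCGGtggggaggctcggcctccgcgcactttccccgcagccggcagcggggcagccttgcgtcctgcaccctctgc
Vim: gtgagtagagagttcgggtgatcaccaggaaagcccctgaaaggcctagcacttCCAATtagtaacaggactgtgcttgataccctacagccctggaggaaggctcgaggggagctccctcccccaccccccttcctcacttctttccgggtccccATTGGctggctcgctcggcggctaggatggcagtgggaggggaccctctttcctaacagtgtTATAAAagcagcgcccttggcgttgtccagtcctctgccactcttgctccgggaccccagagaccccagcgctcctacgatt
Acta2: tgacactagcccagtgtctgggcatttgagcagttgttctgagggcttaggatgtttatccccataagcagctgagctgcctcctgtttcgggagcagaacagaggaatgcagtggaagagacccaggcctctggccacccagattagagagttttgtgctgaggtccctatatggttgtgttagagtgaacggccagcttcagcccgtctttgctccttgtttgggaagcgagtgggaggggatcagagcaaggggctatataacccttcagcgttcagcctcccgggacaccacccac
Lama2: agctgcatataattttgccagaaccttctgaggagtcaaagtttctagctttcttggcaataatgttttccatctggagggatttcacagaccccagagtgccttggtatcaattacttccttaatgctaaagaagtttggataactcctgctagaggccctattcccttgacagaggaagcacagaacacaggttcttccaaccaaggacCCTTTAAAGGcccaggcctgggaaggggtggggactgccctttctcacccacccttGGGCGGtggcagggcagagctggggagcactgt

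TATAAA was present in the windows of Igfbp4, Synpo2 and Vim, and in 13.6% of all 32851 windows of the table. GGGCGG occurred 3 times at the first Col18a1 start, 2 times in Synpo2 and 1 time in Lama2 (35.7% of all windows held it). CCAAT occurred 2 times in Vim and 1 time each in Synpo2 and at the first Col18a1 start (37.4% of all windows). The CArG box matched 1 time, in Lama2 (1.63% of all windows). The second Col18a1 start and Acta2 held no exact match to any of the 4. With 1 of the 6 inner bases of the CArG box allowed to be C or G, Acta2 had 2 matches, ccctatatgg and ccttgtttgg, the other windows shown had none, and 8.5% of all windows had at least 1; this looser form was chosen after the Acta2 window was read. The clone ratios do not say from which Col18a1 start the RNA came, and a match is a description of letters only.

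Basement membrane genes went both ways. Col18a1 had log2 ratios of 3.67, 3.87 and 3.88 on arrays 1, 2 and 3, a mean of 3.81 ± 0.12 (SD, n = 3; limma adjusted p = 3.18e-05). That is 14-fold higher in liver, and its 3 arrays lay closer together than those of most members, whose median SD was 0.26. Lama2, the laminin alpha2 chain of muscle and nerve basement membranes, had -1.44, -2.92 and -1.19. Array 2 was the low one there. The mean was -1.85 ± 0.94 (adjusted p = 0.00666), and leaving array 2 out brought it to -1.32 with the call kept. That fit has only 2 arrays, yet it gave the lowest adjusted p of the Lama2 alternatives (from 6.21e-06 to 0.141). The Lama2 call was lost with exact zeros kept as values (adjusted p = 0.0514), an alternative that changes none of its own 3 ratios.

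The laminin chains beta1 and gamma1, which join with an alpha chain in the common laminins, were read by 3 spots each. Lamb1 was higher in liver at 1.16, 0.66 and 0.57 (mean 0.80 ± 0.32, adjusted p = 0.00847). The array 3 value averages 3 spots, of which 2 had a ratio there only (0.29 and 0.26). The remaining spot had 1.16, 0.66 and 1.16, a mean of 0.99. Lamb1 lost its call without array 1 (adjusted p = 0.0651) and with exact zeros as values (0.39, adjusted p = 0.0622), within a range of 0.000717 to 0.107. Lamc1 was not called, with 0.09, -0.48 and 0.01 (95% confidence interval of the mean -0.51 to 0.26). No test of the difference between Lamb1 and Lamc1 was run. Among the chains without 3 ratios, Lama1 had -0.07 and 0.25 on arrays 1 and 3, and Lamb2 had 0.26 on array 3. Lamb3, a chain of epithelial laminin, had 2.56 on array 2 and 0.38 on array 3, the widest gap between arrays of any member with 2 ratios.

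Fibrillar collagens, which form the tensile fibres, were also split. Col3a1, the type III collagen of reticular fibres, was higher in spleen at -0.77, -1.72 and -0.67 (mean -1.05 ± 0.58, 2.08-fold, adjusted p = 0.0124). Its 3 clones were all negative where measured. AK019448 had -1.17, -1.72 and -0.98, AK013329 had -0.38 and -0.52 on arrays 1 and 3, and X52046 had -0.49 on array 3. As only the first of these had a ratio on array 2, the mean of that array rests on 1 spot. With only the spot measured on all arrays the mean was -1.29, and with exact zeros as values -0.59. Col27a1, a fibrillar collagen of cartilage, was higher in liver at 0.91, 0.71 and 0.30 (mean 0.64 ± 0.31, adjusted p = 0.0176). That call was lost without array 1 (0.51, adjusted p = 0.128) and with exact zeros as values (adjusted p = 0.0553), over a range of 0.00989 to 0.136. Col24a1 had 0.26 and -0.23 on arrays 1 and 3, and Col5a2 had 0.27 on array 3.

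Of the collagens that decorate fibrils, Col14a1 was higher in spleen at -0.90, -0.62 and -1.04 (mean -0.86 ± 0.22, adjusted p = 0.00353). Its clone AK009906 had -1.0, -1.25 and -1.56, whereas AK017553 had -0.81, 0.01 and -0.52 and was not called on its own (adjusted p = 0.0787 over 8284 spots). Col9a1, known from cartilage, was not called as a gene (-0.01, -0.51 and -0.35; interval -0.65 to 0.07). Its 2 clones lay on opposite sides: AK011547 had 0.27, 0.56 and 0.30 (adjusted p = 0.0438), and AK017395 had -0.28, -1.58 and -1.0 (adjusted p = 0.0178). The gene mean thus averages spots that oppose each other on each of the 3 arrays. Col20a1 was not called at 0.17, 0.11 and -0.12 (interval -0.25 to 0.36). Other collagens of the set, grouped here without regard to kind, had fewer ratios: Col25a1 had 0.73 and 0.43 on arrays 1 and 3. On array 3 alone, Col8a1 had 0.39, Col23a1 0.25, Col16a1 0.14 and Col19a1 -0.09.

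**Figure D2:**
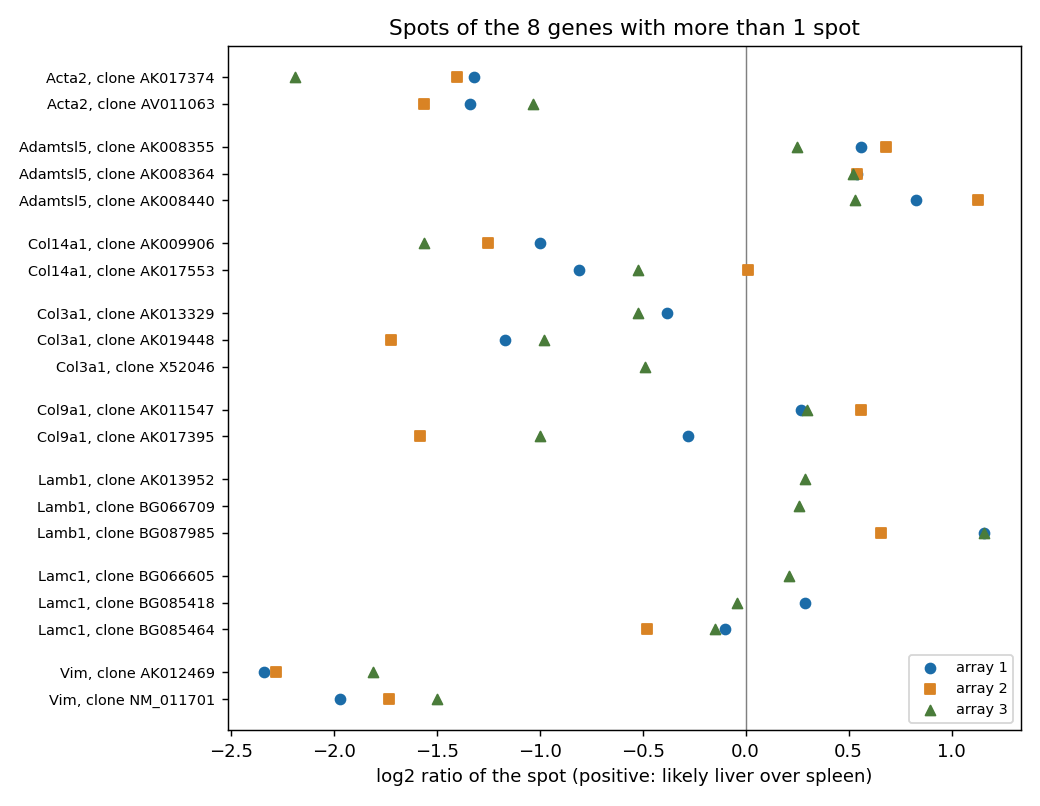
Log2 ratio of each spot (horizontal axis) for the 8 members with more than 1 spot, labelled by cDNA clone; circles, squares and triangles are arrays 1, 2 and 3, and a missing symbol is a missing ratio. The clones of Vim, Acta2 and Adamtsl5 stay on 1 side of 0 on each array, while the 2 Col9a1 clones stand on opposite sides.

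Matrix metalloproteinases were higher in spleen where they were called. Mmp23, a membrane-anchored enzyme, had -1.48, -0.87 and -1.11 (mean -1.15 ± 0.30, 2.23-fold, adjusted p = 0.00196). Mmp2, the gelatinase of fibroblasts, had -0.71, -0.36 and -0.97 (mean -0.68 ± 0.31, adjusted p = 0.0141). Its call was lost without array 1 (adjusted p = 0.0961) and without array 3 (-0.53, adjusted p = 0.0589), over a range of 0.00049 to 0.124. Mmp11, or stromelysin-3, was negative on each array (-0.64, -0.38 and -0.13) but was not called (adjusted p = 0.0667). Mmp13, a collagenase, had -0.51 and -0.78 on arrays 1 and 3, and Mmp10 had 0.24 and 0.0021. Mmp7 and Mmp9, the latter the gelatinase of neutrophils, had ratios on array 3 only, of 0.32 and 0.34.

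The single inhibitor with 3 ratios lay on the other side. Timp3, which is bound to the matrix, was higher in liver at 0.66, 0.75 and 0.91 (mean 0.77 ± 0.12, 1.71-fold, adjusted p = 0.00333). It was called under all 13 alternatives run for single genes, but not against the 2-fold null. Timp4 had 0.31 on array 3.

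Of the 6 Adam family members with 3 ratios, 4 passed the test toward spleen, 0 toward liver and 2 not at all. Over all tested genes 27.8% were called toward spleen and 27.1% toward liver, and 6 genes are too few to compare with those shares. Adamdec1, a soluble Adam-like protease of macrophages and dendritic cells, had -2.28, -2.30 and -1.97 (mean -2.18 ± 0.18, adjusted p = 0.000137). It was thus 4.54-fold higher in spleen. Adam10, the main sheddase of Notch receptors, followed at -1.91, -1.94 and -2.12 (mean -1.99 ± 0.11, 3.97-fold, adjusted p = 0.00014). Both also passed against the 2-fold null (adjusted p = 0.00165 and 0.00245). Adam15, which carries an integrin-binding motif, was not called at 0.29, -0.07 and -0.19 (interval -0.34 to 0.36).

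The testis Adam genes, known for roles in sperm, were also spotted. Adam5 was higher in spleen at -1.06, -1.79 and -1.02 (mean -1.29 ± 0.43, adjusted p = 0.0027). Adam21 was called there at -0.28, -1.08 and -0.37 (mean -0.58 ± 0.44, adjusted p = 0.0469), but lost its call with any 1 array left out (adjusted p from 0.0819 to 0.103, with a mean of -0.32 without array 2). Its adjusted p ranged from 0.0391 to 0.23 over all alternatives. Adam39 had -0.21, -0.76 and -0.29 and was not called (adjusted p = 0.0615). In these 3 genes array 2 gave the lowest ratio, while arrays 1 and 3 lay close together. Adam30 had -0.84 and -0.57 on arrays 1 and 3, and Adam25 had -0.05 on array 1. Adam26b (0.32), Adam1b (0.28), Adam26a (0.27) and Adam2 (0.23) had a ratio on array 3 only. Copies such as Adam26a and Adam26b are closely related, and a cDNA spot may bind RNA of more than 1 such copy.

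Among the secreted relatives of the Adamts proteases, Adamtsl5, which lacks the protease domain, was higher in liver at 0.64, 0.78 and 0.44 (mean 0.62 ± 0.18, adjusted p = 0.00956). Its 3 clones averaged 0.50, 0.53 and 0.83, and each was called on its own. Without array 1 the gene was no longer called (adjusted p = 0.0815, within a range of 0.00785 to 0.0815). Adamtsl1 scattered over 0.53, -0.62 and 0.02 and was not called. Adamts5, an aggrecan-cutting enzyme, had 0.04 on array 3. The fibulins, which link elastic fibres and basement membranes, were not called: Fbln7 had 0.21, 0.33 and 0.30 (adjusted p = 0.0815) and Fbln2 0.30, 0.36 and -0.08. Loxl4, a collagen cross-linking enzyme, was not called either, at 0.29, 0.32 and -0.42 (interval -0.40 to 0.52). Loxhd1 had -0.84 and -0.53 on arrays 1 and 3, and Sparc, a collagen-binding matricellular protein, had 0.31 on array 3.

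Igfbp4 and Lum were both far higher in liver. Igfbp4, a secreted carrier of insulin-like growth factors, had 3.32, 3.77 and 2.70 (mean 3.26 ± 0.53, 9.60-fold, adjusted p = 0.000201). Lum, a small proteoglycan that binds collagen fibrils, had 2.99, 2.58 and 2.89 (mean 2.82 ± 0.21, 7.06-fold, adjusted p = 7.59e-05). Each was read by a single clone. These 2 and Col18a1 were the only tested members with a mean above a 2-fold difference on the liver side; the next, Lamb1, was below it. Igfbp4 and Lum stood at ranks 91 and 135 of 5731 genes from the liver side. Both entered the set by full symbol, in a rule written with earlier results known, so their ranks only describe genes chosen that way.

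Synpo2, Vim and Acta2, genes of the stromal cytoskeleton that entered the set by full symbol, were each higher in spleen, as were 27.8% of all tested genes. Synpo2 had -3.63, -3.94 and -3.59 (mean -3.72 ± 0.19, 13.2-fold, adjusted p = 3.84e-05). Vim, the intermediate filament of mesenchymal cells and leukocytes, had -2.15, -2.01 and -1.65 (mean -1.94 ± 0.26, adjusted p = 0.000271). Its clones AK012469 and NM_011701 averaged -2.14 and -1.73. Acta2, smooth muscle actin, had -1.33, -1.48 and -1.61 (mean -1.47 ± 0.14, adjusted p = 0.00039), and its clones averaged -1.64 and -1.31. Those 2 clones agreed on arrays 1 and 2 but stood at -2.19 and -1.03 on array 3.

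Other smooth muscle markers went both ways beside these. Of 6 tested, 3 were on the spleen side, 2 on the liver side and 1 did not pass (median -0.36, means from -1.23 to 1.08). Counts in this paragraph are to be read against all tested genes, of which 27.1% were called toward liver and 27.8% toward spleen. Myl9 (-1.23 ± 0.14) and Myh11 (-1.13 ± 0.34), both part of smooth muscle myosin, were on the spleen side. So was Cnn2 (-1.18 ± 0.74), a calponin that is not confined to smooth muscle. Smtn (1.08 ± 0.13) was on the liver side. Tagln had no ratio, and Cnn1, Mylk and Des had one on array 3 only (0.18, 0.62 and 0.26). None of 4 tested endothelial markers passed in limma (means from -0.50 to 0.36; 2 with an unadjusted p under 0.05), nor did the 2 of spleen reticular stroma (-0.20 and 0.35; 0 with such a p). Of 4 tested stellate cell and fibroblast markers outside the set, Reln (1.04 ± 0.28) and Cygb (0.37 ± 0.08) were higher in liver, and Pdgfra (-1.15 ± 0.66) and Dpt (-0.81 ± 0.11) in spleen. The single cholangiocyte marker tested, Sox9, was higher in liver (1.11 ± 0.21). Axl, the single macrophage marker tested, was higher in spleen (-2.14 ± 0.06). Macrophage markers without 3 ratios were positive: C1qa had 0.74 and 0.16 on arrays 2 and 3, and Csf1r and Cd68 had 0.49 and 0.12 on array 3 only. Of all spots with a ratio on array 3 only, 87.8% were positive (median 0.25), so the sign of Csf1r and Cd68 cannot be set against Axl. The 3 tested platelet markers were higher in spleen (means from -3.22 to -0.48), and no mesothelial marker had 3 ratios. The part of cell composition in the members' ratios was not tested.

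**Figure D3:**
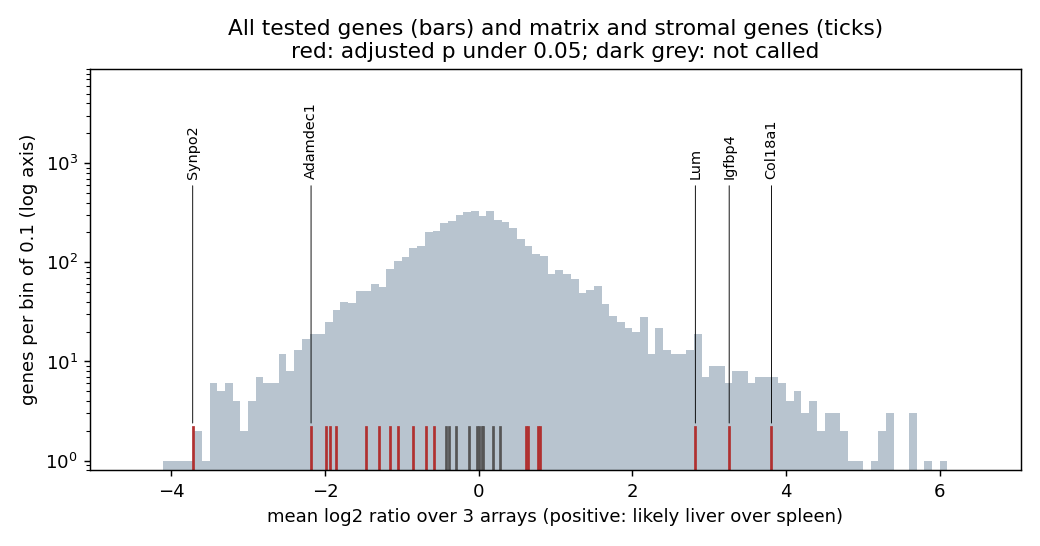
Mean log2 ratio over 3 arrays (horizontal axis) of all 5731 tested genes as grey bars, counted per bin of 0.1 on a log axis, with a tick for each of the 29 tested members (red, adjusted p under 0.05; dark grey, not called). Between 0.80 and 2.82 there is no member on the liver side, whereas the spleen side is filled down to -2.18, with Synpo2 alone at -3.72.

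Members with few ratios lay mostly in a narrow range. Ratios were present for 45, 36 and 64 of the 65 member spots on arrays 1, 2 and 3, and 15 members had a ratio on array 3 only. Of the 19 member spots measured only there, 17 were positive, with a median of 0.27 and quartiles of 0.22 and 0.31. All 2075 spots of the array with that pattern had a median of 0.25 (quartiles 0.17 and 0.31) and 87.8% were positive. Spots with ratios on all 3 arrays had a median of -0.05 on array 3 (quartiles -0.58 and 0.45) and 47.6% were positive. The values given above for members with a ratio on array 3 only (collagens, Mmp7, Mmp9, Timp4, Adam genes, Lamb2 and Sparc) stand beside that range and carry no call. Other spots of this pattern entered the array 3 means of tested members: the called Lamb1 (0.29 and 0.26) and Col3a1 (-0.49), and Lamc1 (0.21).

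**Figure D4:**
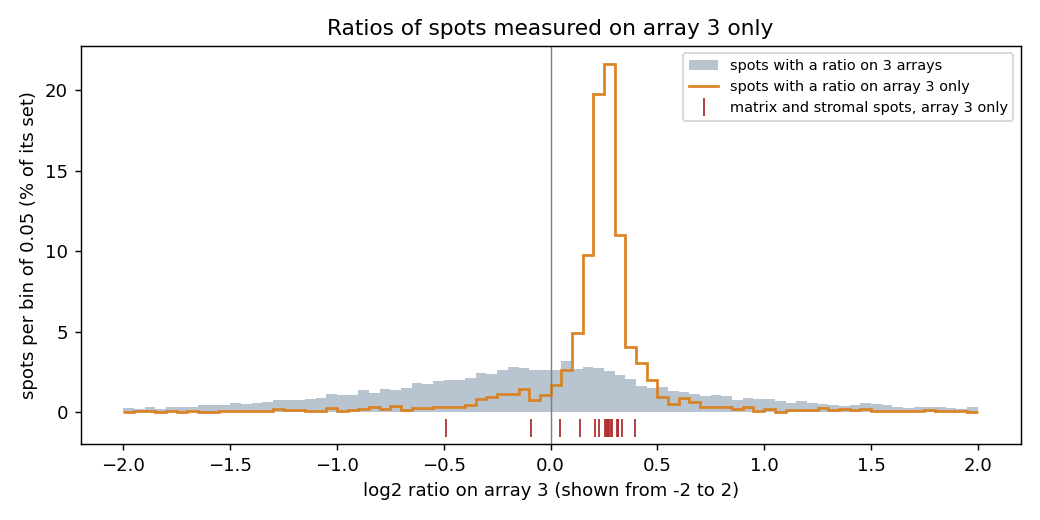
Share of spots (vertical axis, % of each set per bin of 0.05) by their log2 ratio on array 3, for spots with a ratio on 3 arrays (grey) and on array 3 only (orange line); red ticks are the 19 member spots measured on array 3 only. The orange peak lies at a median of 0.25, and 17 of the 19 ticks are positive.

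The SD over arrays ranged from 0.06 (Fbln7) to 0.94 (Lama2), with a median of 0.26 against 0.22 for all tested genes. The 3 arrays shared a sign for 23 of 29 members, 8 positive and 15 negative, or 79.3% against 75.9% of all tested genes. The mixed ones were Lamc1, Col20a1, Adam15, Adamtsl1, Fbln2 and Loxl4.

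Matrix genes outside the rule stood on both sides, and their counts are to be read against the 54.9% of all tested genes that were called. Of 12 tested matrix glycoproteins and proteoglycans, 3 were called toward liver and 6 toward spleen (median -0.61). The liver-secreted Vtn stood at 4.61 ± 0.63 and the proteoglycan Sdc2 at 1.67 ± 0.06, against -1.59 ± 0.62 for the Sparc relative Smoc2 and -1.31 ± 0.74 for Svep1. Of 4 tested genes in the collagen processing list, the lysyl hydroxylases Plod1 (1.37 ± 0.10) and Plod3 (0.53 ± 0.11) were higher in liver. Crtap (-0.24 ± 0.12) and Leprotl1 (-0.20 ± 0.07) were not called, and Leprotl1 is not a collagen processing gene. Outside the main test, Serpinh1 had -1.18 and -1.01 on arrays 1 and 3, and Colgalt1 had 0.13 and 0.08 there. Pcolce2 had 0.26 on array 3, and P3h1 had no ratio. Of 10 tested genes in the list of integrins and matrix receptors, 2 were called toward liver and 5 toward spleen (over all genes 27.1% and 27.8%). The median was -0.44, with means between -0.80 (Rpsa, the laminin receptor and ribosomal protein) and 0.57 (Itgb5). These counts include Itgb1bp1 (-0.56 ± 0.14, called toward spleen) and Ilk (0.11 ± 0.15, not called). Both bind integrins inside the cell and are not receptors.

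Genes of the further protease and growth factor lists also had ratios on both sides of 0. Of 7 tested genes in the list of further proteases and inhibitors, 1 was called toward liver and 3 toward spleen. The liver call was Bsg (1.04 ± 0.15), an inducer of Mmp genes that is itself neither a protease nor an inhibitor. The spleen calls were Prss23 (-1.33 ± 0.29), Cst3 (-0.69 ± 0.03) and the collagen-degrading Ctsk (-0.57 ± 0.24). Beside Igfbp4, the carrier Igfbp2 was higher in liver (3.06 ± 0.31, 8.33-fold). Its relatives Igfbp3 (-2.21 ± 0.38, 4.64-fold), Igfbp5 (-0.49 ± 0.05) and Igfbp6 (-0.39 ± 0.03) were higher in spleen. Of 9 TGF-beta and related genes, Acvrl1 was higher in liver (0.64 ± 0.52), Pdgfra and Smad2 (-0.52 ± 0.18) in spleen, and 6 were not called (median 0.04).

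**Figure D5:**
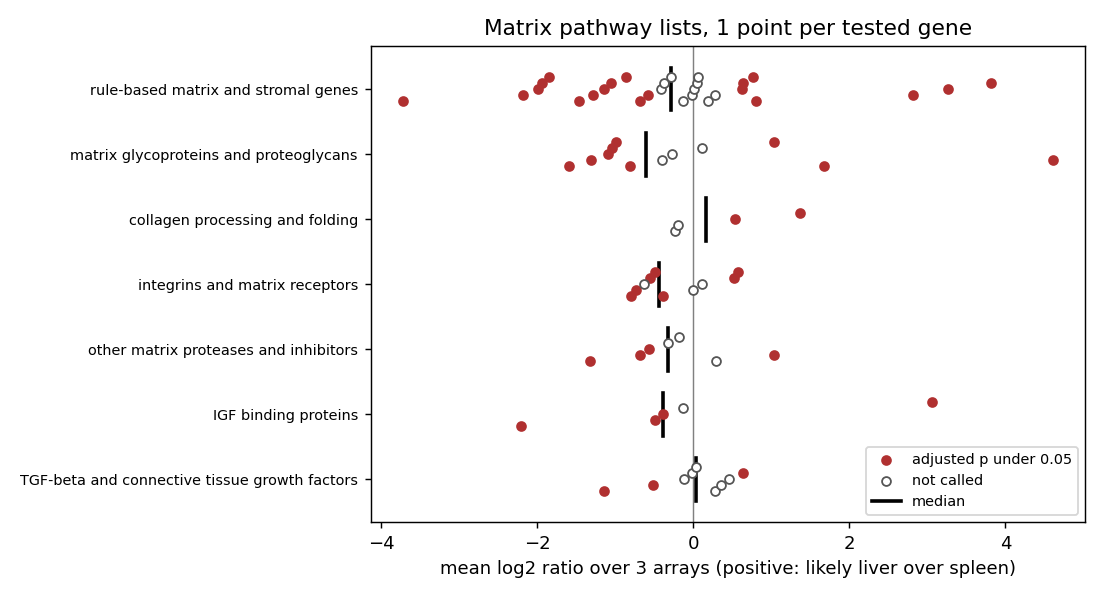
Mean log2 ratio over 3 arrays (horizontal axis, positive likely liver over spleen) of each tested gene in the rule-based set and in 6 further matrix lists; red points had an adjusted p under 0.05, open points were not called, and the black bar is the median of the list. Medians range from -0.61 (matrix glycoproteins and proteoglycans) to 0.17 (collagen processing), and every list has points on both sides of 0. The lists are drawn as chosen, with Leprotl1, Ilk, Itgb1bp1 and Bsg, which do not match the name of their list.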

How the data were processed

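The deposited table holds log2 ratios (both channels of a spot, for each array) and no intensity. Scale and centring are those of the authors. The sources used here do not give their image analysis, background correction or normalization. The log base was read from the values, whose upper limit is the log2 of 100. Exact zeros (3207, 5153 and 1063 spots) were taken as missing. Spots were named from the platform annotation; 12336 name 1 gene, 61 several and 3876 none. Spots of a gene were averaged per array, and the 5731 genes with 3 ratios were fitted with limma 3.58.1 in R 4.3.3 (intercept, lmFit and eBayes, two-sided, 2 residual and 3.51 prior degrees of freedom). Single spots were fitted likewise. Errors are SD over 3 arrays, whose number limits the precision; 95% confidence intervals come from the fit. The fit was run on simulated data of 5731 genes, with variances drawn from its own prior. It recovered 8% of genes set at a log2 difference of 0.5, 80% at 1 and 100% at 2 and 4, with 10 false calls. Small differences were thus mostly missed in the simulation. Fewer genes differed there than were called in these data, so these shares need not hold here. The members and gene lists were chosen with earlier results of these data known. Any member could be named, and of each further list at most 4 called genes. Its extremes, genes that do not match its name and genes without 3 ratios could be added. Alternatives changed the treatment of zeros, centring, scaling, spot averaging, clones, coverage, variance, symbols and the arrays used.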

Additional observations from a re-analysis of the deposited data

How the results depend on the processing

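Of the 19 called members, 9 kept their call under all 13 alternatives run for single genes (Col18a1, Igfbp4, Lum, Timp3, Synpo2, Vim, Acta2, Adam10 and Adamdec1) and 10 lost it, each of them with own variances in place of moderated ones (Adam5, Mmp23, Col14a1 and Col3a1 under that setting only of the 13, with adjusted p = 0.087, 0.0665, 0.0639 and 0.158); none of the 10 uncalled members gained one, and no called member changed sign. With each gene's own variance, 4 members were called higher in liver, 5 in spleen and 1461 genes in all, against 7, 12 and 3146. Against a 2-fold null, which is not among the 13, the members called were 3 and 5. Without the members given by full symbol, a count added after seeing the data, the adjusted p called 5 and 9. With ratios on 2 arrays allowed, the counts were 8 and 14 over all members, those given by full symbol included. Leaving out 1 array gave 4 to 7 members higher in liver, 10 to 11 in spleen and 1873 to 3168 genes in all. Without array 2, adjusted p was smaller than in the main fit for every called member but Adam21 and Adamtsl5. A call kept on those 2 arrays is therefore no sign of a firmer result. Of member spots 10 were called higher in liver and 15 in spleen; these became 6 and 6 with own variances, and 6 to 9 and 13 to 15 with 1 array left out, alternatives for spots being chosen after seeing the data. Updated symbols renamed no member, and no member spot was an AW or AU clone. Each ratio already pairs both tissues on 1 array, so the fit is paired by array, and the arrays form 1 group with no further number to block on. Signal over background is unknown, so how far dim spots limit these ratios was not tested.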
